A study of Mus musculus with 2 samples.

Results

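Endothelial cells, labelled as those of the lens vasculature, were chosen from single-cell RNA counts of lens epithelium by the transcripts they carried. A barcode was a member if it held at least 5 UMIs (unique molecular identifiers, the tags by which copies of a transcript are told apart) of Cldn5, Cdh5, Flt1 and Ctla2a together, at most 5 UMIs of Rgs5 and less than 2% of its UMIs in the lens crystallins Cryaa and Cryab. Of 20102 barcodes kept by limits on depth and mitochondrial RNA, 567 were members, 337 of 11585 in replicate 1 and 230 of 8517 in replicate 2, or 2.80% ± 0.147 (SD, n = 2 pools) of the kept barcodes. Both samples were pools of lens epithelium from wild-type C57BL/6N mouse pups at postnatal day 2, with 4 to 8 pups in each, no treatment and no second genotype. The capsule with its epithelium was peeled off after the surrounding vessels had been picked and digested away, so the share of members is no measure of how many such cells the lens carried. Which vessel the members came from was not tested. In each pool the members were set beside mural cells (Rgs5 over 5 UMIs), macrophages, and lens epithelial cells, which were the barcodes with 2% or more crystallin.

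The newborn mouse lens is fed by the tunica vasculosa lentis, a net of capillaries that is continuous with the hyaloid vessels and regresses as the eye matures. Endothelial cells line such vessels. They read vascular endothelial growth factor (VEGF) through the receptor kinases Kdr and Flt1, sort arterial from venous and sprouting from trailing cells through Notch, and form a barrier with tight junctions and selective transporters where Wnt signals reach them through Fzd4.

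Promoters of 3 endothelial genes are shown, those of both VEGF receptors and of Cd34, because ETS factors, which bind a GGAA core, act in endothelial cells and the ETS genes Fli1 and Ets1 were among the transcripts measured below. Each is the 250 bases before the RefSeq gene start (GRCm38.p6), 5′ to 3′ on the gene's strand, with AGGAAG or its reverse complement CTTCCT in capitals. The Flt1 window is chr5:147726012-147726261 (minus strand), the Kdr window chr5:75978456-75978705 (minus strand) and the Cd34 window chr1:194938571-194938820 (plus strand).
Flt1: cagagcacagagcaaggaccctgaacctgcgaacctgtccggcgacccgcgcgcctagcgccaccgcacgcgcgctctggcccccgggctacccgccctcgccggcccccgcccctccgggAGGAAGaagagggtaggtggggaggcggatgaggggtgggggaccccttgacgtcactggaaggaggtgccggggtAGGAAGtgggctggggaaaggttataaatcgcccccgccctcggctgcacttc
Kdr: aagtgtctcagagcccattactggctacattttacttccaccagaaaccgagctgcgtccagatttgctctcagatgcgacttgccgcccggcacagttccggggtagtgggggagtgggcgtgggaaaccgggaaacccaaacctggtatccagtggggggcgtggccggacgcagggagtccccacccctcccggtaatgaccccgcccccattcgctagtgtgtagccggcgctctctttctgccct
Cd34: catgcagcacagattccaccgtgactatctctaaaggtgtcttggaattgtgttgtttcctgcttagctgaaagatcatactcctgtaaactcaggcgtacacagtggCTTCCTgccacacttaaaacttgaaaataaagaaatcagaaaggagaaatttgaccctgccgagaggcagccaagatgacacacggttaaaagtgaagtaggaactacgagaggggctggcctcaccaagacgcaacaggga
AGGAAG occurred 2 times in the Flt1 window, 1 time in the Cd34 window and 0 times in the Kdr window, and at least 1 time in 29.2% of the 27025 promoter windows of this length. Windows of the rule genes Cldn5 and Ctla2a were also taken, are not shown, and held 0 matches. The motif was chosen after values had been seen, and a match is not a site. Absence of the motif says only that these letters are not in the window. Entries were matched for 14 of the 24 leading genes, too few for a share over them. The transcripts themselves come from Flt1 (chr5:147561604-147726011), Kdr (chr5:75932827-75978458) and Cd34 (chr1:194938819-194961279) in the GENCODE vM21 annotation of the same build, and those of the other rule genes from Cldn5 (chr16:18776847-18778262), Cdh5 (chr8:104101625-104144511) and Ctla2a (chr13:60934155-60936625).

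The 2 files held 93839132 and 86033032 UMIs in 12314 and 9425 barcodes, with medians of 6307 and 8050 UMIs per barcode. Members were shallower, with medians of 3207 and 3547 UMIs and 1566 and 1663 genes, and all of them together held 1559270 and 1067787 UMIs, so that 3 UMIs, the limit that a count of 0 allows, correspond to 1.92 and 2.81 CPM (the UMIs of a gene scaled to a class total of 1000000). A member held a median of 20 and 24 UMIs of the 4 chosen genes, and 505 members held 10 or more. Just inside the limit, 9 members held 5 such UMIs, and just outside it 13 barcodes held 4. Rgs5 was 0 in 554 members and at most 2 UMIs in the others, while the 5 barcodes excluded for it held 20 or more. Crystallin took a median of 0.184% and 0.150% of a member's UMIs. A further 83 kept barcodes met the endothelial limit but held 2% or more crystallin, with medians of 4.25% and 3.87%, and were counted as lens epithelial. The 2 files shared 27 barcode sequences, and no barcode was a member in both.

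The upper depth limits removed many barcodes of the same kind. Outside the kept set, 150 barcodes with at most 15% mitochondrial UMIs met all 3 gene criteria but lay above the upper limit on UMIs or on genes, 84 in replicate 1 and 66 in replicate 2. They were 20.0% (95% exact binomial interval 16.2% to 24.1%) and 22.3% (17.7% to 27.5%) of the members and these barcodes together, and held 54.7% and 62.0% of the UMIs of both. They held 13237 to 39794 UMIs (median 19999) in replicate 1 and 14212 to 50283 (median 25437) in replicate 2, against 961 to 16883 and 1022 to 17819 in the members. Their crystallin medians of 0.146% and 0.0805% were below those of the members, and 0 mural barcodes lay above the limits in either pool. All 20 leading genes described below were within 1.5-fold of the members in each pool, and so were 672 and 668 of the 679 genes with at least 200 CPM in members of both pools. Cldn5 stood at 2789.9 and 2834 CPM against 3066 and 3147 in the members, and Kdr at 818 and 1012 against 728 and 802. The 10 cycling genes used later summed to 1387 and 972 CPM against 1042 and 565 in the members. Whether such a barcode held 1 cell or more was not tested, and the members as defined are the shallower part of the endothelial barcodes.

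**Figure D1:**
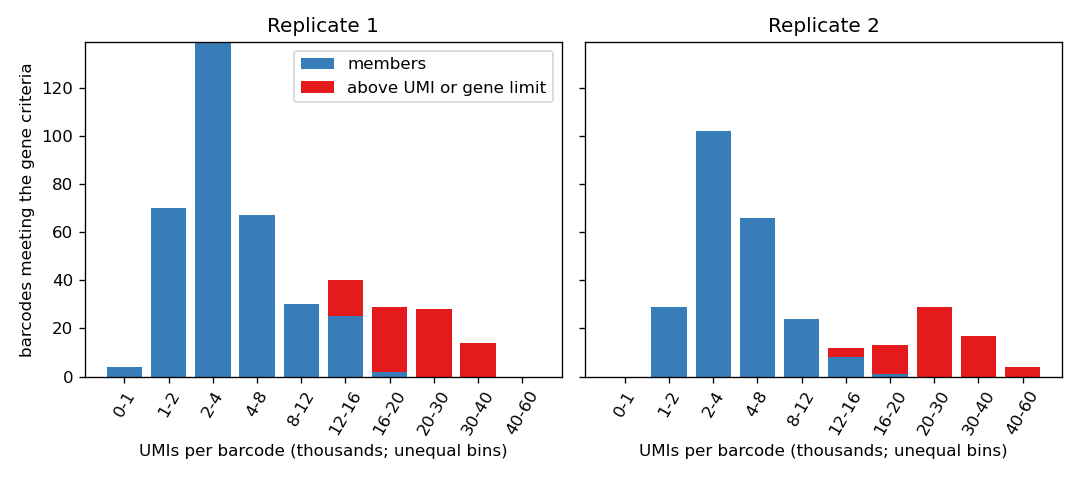
Number of barcodes that met the gene criteria (vertical axis) by UMIs per barcode in unequal bins (horizontal axis) for each pool; blue marks the members and red the 84 and 66 barcodes above the UMI or gene limit. The bin from 2000 to 4000 UMIs held the most members in each pool, 139 and 102, and no member reached 20000 UMIs.

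Genes outside the rule matched the endothelial label. They are given as levels without a test, since the rule chose the cells by their transcripts. Counts come from 3′ tags, 1 per transcript, so gene length plays no part when levels of 2 genes are set side by side. All 20 endothelial markers outside the rule had at least 100 CPM and lay above both mural and lens epithelial cells. Their median log2 ratio to all other kept barcodes was 5.98 (5 CPM added to both levels). Over the 14119 genes with a UMI in the members the median was 0.09. The rule genes themselves stood at 3066 and 3147 CPM (Cldn5, the tight-junction claudin), 1708 and 1879.6 (Ctla2a, a cysteine protease inhibitor), 1119 and 1125 (Flt1) and 767 and 757 (Cdh5, the adherens-junction cadherin) in the 2 pools. Of 13 mural markers, Pdgfrb, Cspg4, Kcnj8, Des, Vtn and Myh11 were at 0, and the list summed to 46.2 and 31.8 CPM against 13992 and 16671 in mural cells. The 12 macrophage markers summed to 3.85 and 8.43 CPM, all 6 melanocyte and pigment markers were at 0, and the 6 fibroblast markers summed to 8.34 and 9.37 CPM. Of 7 lymphatic markers, which summed to 96.8 and 114 CPM, Lyve1, Ccl21a and Reln were at 0. Flt4 (64.8 and 65.6 CPM) and Mmrn1 (16.7 and 18.7), a matrix protein, were above both mural (1.71 and 3.97, and 0 for Mmrn1) and lens epithelial cells (0.186 and 0.141, and 0.0868 and 0.0848). Pdpn was at 7.70 and 4.68 CPM in the members and 117 and 115 in lens epithelial cells, and Prox1, which lens cells carried at 417 and 409.8 CPM, was at 7.70 and 25.3. Red-cell RNA was present but sat in few barcodes. Hbb-bs, the adult beta globin, had UMIs in 6 and 12 members, and 1 barcode in each pool held 395 of 405 and 1129 of 1255 of them.

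The 20 genes with the largest ratio to all other kept barcodes, at 200 CPM or more in both pools, were led by Col18a1, the basement membrane collagen whose end fragment is endostatin, at 1703 and 1503 CPM against 7.55 and 5.90 in the others. Ramp2, a co-receptor for adrenomedullin, followed at 1092 and 941. The sialomucin Cd34 was at 1069.7 and 963 and the lectin-like receptor Cd93 at 981 and 953. Kdr stood at 728 and 802 CPM and Eng (endoglin), a co-receptor for bone morphogenetic proteins (BMP), at 990.2 and 969. The remaining 14 were Rgcc, Adgrl4, Plvap, Lmo2, Ptprb, Adgrf5, Rasip1, Col15a1, Pecam1, Fxyd5, Emcn, Esam, Ecscr and Fli1, and their means lay between 369 and 581 CPM. Of the 20 genes, 14 were under 50 CPM in mural cells, with Adgrl4, Rasip1 and Col15a1 at 0. The 4 genes with 100 CPM or more there were Eng, Emcn, Esam and Ecscr, the last a regulator of endothelial migration, at 218 and 301 CPM. Flt1, a gene of the rule, was also found in mural cells, at 182 and 176 CPM.

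**Figure D2:**
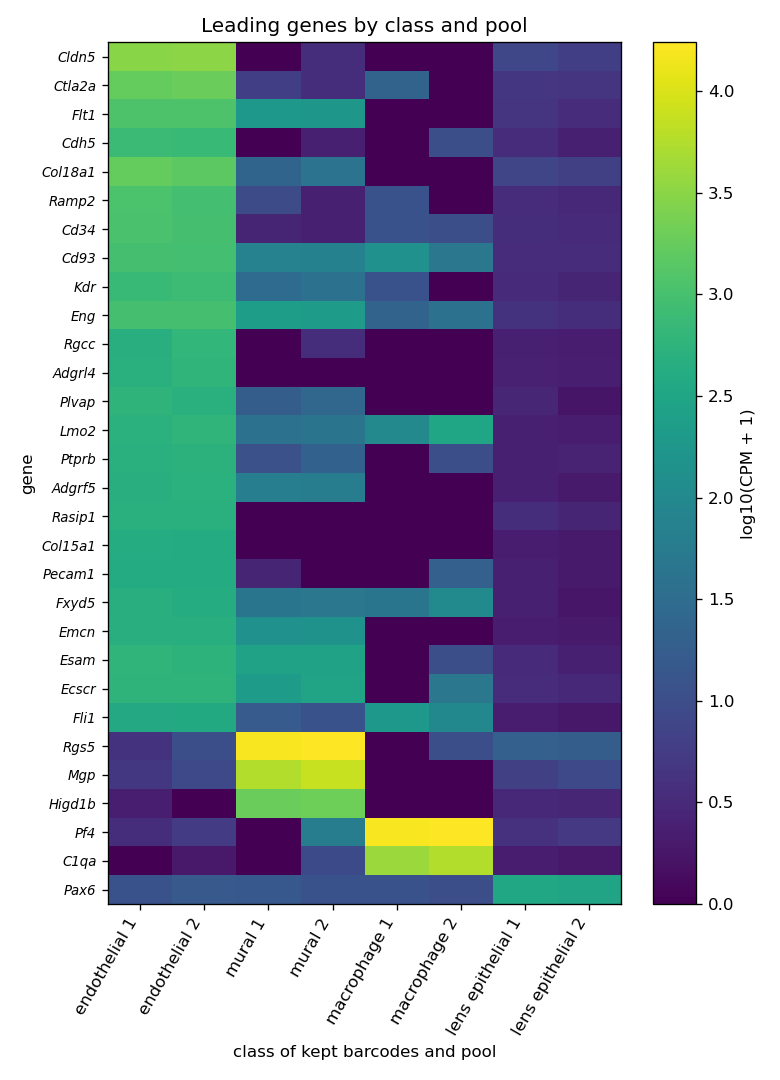
Level of the 4 rule genes, the 20 leading genes and 6 markers of other cells (rows) in each class and pool (columns), as log10(CPM + 1). The 24 upper genes are bright in both endothelial columns, and the mural, macrophage and lens markers are brightest in their own columns, with Pax6 at 10.9 and 14.0 CPM in the members.

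Transcription factors that mark endothelium were present in the members, with 12 of 22 at 100 CPM or more and a median log2 ratio of 3.89 to the others. Klf2, which answers to blood flow, led at 1048 and 1264 CPM, followed by Tcf4 at 922 and 1076, Epas1, the hypoxia factor HIF2A, at 539 and 597, Klf4 at 410.4 and 459.8, Ets1 at 403 and 443 and Fli1 at 367 and 369.9. Sox17 (181 and 166 CPM), Sox18 (189 and 294) and Sox7 (119.9 and 125) were all present, and in mural cells only Sox17 had any UMI, at 1.71 CPM in replicate 1. Several factors were not restricted to the members. Epas1 stood at 718 and 759 CPM, Ets1 at 413 and 491 and Foxq1 at 334 and 395 in mural cells, against 225 and 229 for Foxq1 in the members. Nr2f2, the COUP-TFII factor of venous cells, was at 7.70 and 6.56 CPM in the members and 286 and 226 in mural cells.

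VEGF receptors and ligands were divided between cell classes, and 3 of 10 had 100 CPM or more in the members (median log2 ratio 2.97). Flt1 is in this count and median but is a rule gene, so its high level in the members was chosen. Kdr, outside the rule, was highest in the members, with the co-receptor Nrp1 at 265 and 305 CPM there and 220.0 and 193 in mural cells. Flt4, the VEGF-C receptor, stood at 64.8 and 65.6 and Nrp2 at 50 and 56.2. Of the ligands, Vegfa was at 20.1 and 23.6 CPM in lens epithelial cells, 6.82 and 6.61 in mural cells and 2.57 and 3.75 in the members, where it rested on few UMIs. Vegfb was at 86.7 and 86.8 in lens epithelial cells and 21.2 and 15 in the members. Placental growth factor (Pgf), a ligand of Flt1, was at 111 and 55.5 in mural cells, 29.6 and 21.8 in lens epithelial cells and 1.28 and 0.937 in the members. Vegfc alone of the 5 ligands was highest in the members, at 25.7 and 26.2 CPM.

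The angiopoietin receptor Tek stood at 137 and 179 CPM, its partner Tie1 at 228 and 223 and the phosphatase Ptprb, which acts on Tek, at 494 and 524. Angpt1, the activating ligand, was at 0 in the members and at 27.3 and 41 CPM in mural cells. Angpt2, the ligand of remodeling vessels, was at 8.34 and 33.7 CPM in the members and 87.0 and 64.8 in mural cells.

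Of 14 Notch genes 5 had 100 CPM or more (median log2 ratio 0.57). The ligand Dll4 stood at 191 and 216 CPM in the members and 8.53 and 6.61 in mural cells, Jag2 at 74.4 and 105 and Jag1 at 122 and 119.9. The receptor Notch1 was at 228 and 221 CPM and Notch4 at 98.1 and 93.7, while Notch3, the receptor of mural cells, was at 1.92 and 2.81 and 391 and 406 in the 2 classes. Of the targets, Hes1 was at 658 and 632 CPM and Nrarp at 189 and 184, but Hes1 was as high in lens epithelial cells (536 and 667). Heyl was at 0.641 and 0 in the members and 317 and 282 in mural cells. The 14 genes summed to 1659 and 1674 CPM in the members and 1598 and 1616 in mural cells, and 9 lay above mural cells. With cells thinned to 2000 UMIs, Notch1 was found in 31.6% and 31.8% of members and 34.0% and 29.4% of mural cells. For Jag1 these shares were 25.5% and 28.4% against 28% and 21.9%, and for Nrarp 25.9% and 26.9% against 28.7% and 23.4%.

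**Figure D3:**
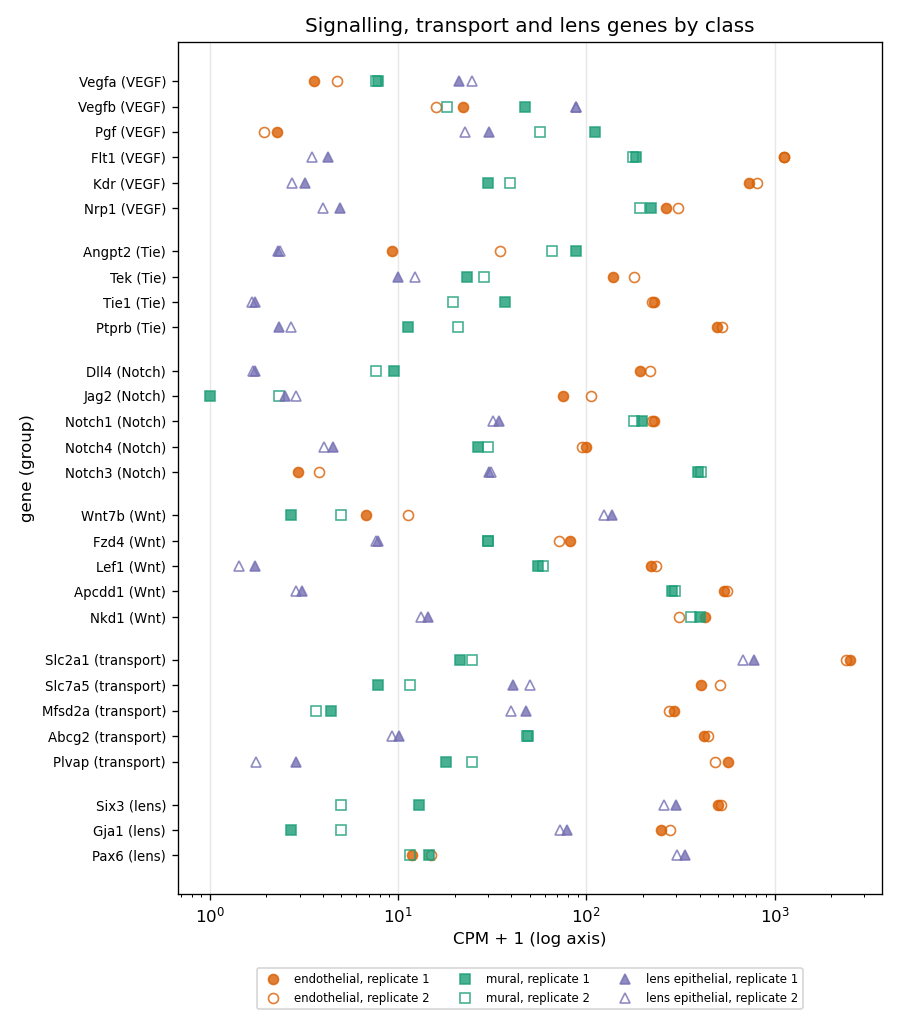
Level of genes of 6 roles (rows, grouped by role) in endothelial, mural and lens epithelial cells, as CPM + 1 on a log axis; filled symbols are replicate 1 and open symbols replicate 2. Receptors other than Notch1 and Notch3, and the transporters, lie farthest right in endothelial cells, whereas Vegfa, Vegfb and Wnt7b lie highest in lens epithelial cells. Flt1 is a gene of the rule.

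Transporters and other genes of barrier vessels were found in the members. Of 15 such genes 9 had 100 CPM or more and 14 lay above mural cells, with a median log2 ratio of 2.82 to the other kept barcodes. The glucose transporter Slc2a1 (GLUT1) stood at 2515 and 2393 CPM, among the highest of the genes named here, and was also high in lens epithelial cells at 777 and 678. The matrix proteoglycan Spock2 was at 713 and 720.2 CPM, the amino acid transporter Slc7a5 at 405 and 512 and the efflux pumps Abcg2 and Abcb1a at 420.1 and 444 and 247 and 312, in order of gene and then of pool. Mfsd2a, the lipid carrier that restrains transcytosis, was at 292 and 273 CPM. Plvap, the diaphragm protein of fenestrated and leaky vessels, was at 563 and 482 CPM over all members, and Slco1c1, the thyroxine carrier of brain capillaries, at 63.5 and 70.2. Slc16a1, a lactate carrier, was at 3.85 and 1.87 CPM in the members and 41.7 and 40.1 in lens epithelial cells.

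Of 14 Norrin and Wnt genes 3 had 100 CPM or more in the members (median log2 ratio 2.02). Apcdd1 stood at 536 and 560.0 CPM, Nkd1 at 425 and 311, Lef1 at 219 and 232 and Axin2 at 48.7 and 60.9, all of them targets of beta-catenin. The receptors Fzd6 and Fzd4 were at 93.0 and 95.5 and 80.8 and 70.2 CPM, Tspan12, which serves Norrin signaling through Fzd4, at 72.5 and 80.5, and the Wnt7 co-receptor Adgra2 at 69.3 and 58.1. Norrin itself (Ndp) was at 0 in the members and in mural cells. Wnt7b was at 135 and 123 CPM in lens epithelial cells and 5.77 and 10.3 in the members. Mural cells carried Apcdd1 (283 and 295 CPM) and Nkd1 (401 and 358) as well, whereas lens epithelial cells had 2.10 and 1.88 CPM of Apcdd1. Of the 14 genes 7 lay above mural cells. With cells thinned to 2000 UMIs, Axin2 was found in 10.7% and 16.9% of mural cells and 4.94% and 12.4% of members. For Tspan12 these shares were 27.3% and 25.9% against 16.0% and 16.9%, and for Adgra2 12% and 17.4% against 12.9% and 12.9%. Fzd4, Fzd6 and Lef1 were found in a larger share of members.

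Junction genes beside Cldn5 included Ctnnb1 (beta-catenin) at 797 and 713 CPM, Esam at 603 and 559, Pecam1 at 411 and 409, Ctnna1 at 282 and 287 and Cdh2 at 248 and 303, and 10 of 15 had 100 CPM or more (median log2 ratio 1.75). Occludin (Ocln) was low at 43.6 and 29.0 CPM. Of the 15 junction genes 12 lay above lens epithelial cells. With cells thinned to 2000 UMIs, Cdh2 was found in 37.6% and 40.8% of members and 45.8% and 47.1% of lens epithelial cells. Of 14 basement membrane genes 11 reached 100 CPM, with a median log2 ratio of 0.90, and 6 lay above mural cells. Sparc, a matrix-binding glycoprotein, stood at 4776 and 4524 CPM, Col4a1 at 1786 and 2092, Col4a2 at 1516 and 1764 and Hspg2 (perlecan) at 577 and 622. For Col4a1 the members did not stand apart, with 5211 and 6040.4 CPM in mural cells and 1946 and 2038 in lens epithelial cells. Col15a1 was at 413 and 412 CPM in the members and 0 in mural cells. The integrin chains with the highest levels were Itgb1 (465 and 534 CPM), Itga6 (219 and 204) and Itga5 (109 and 102), and Itgb3 was at 0. The 11 integrin genes summed to 963 and 1070 CPM in the members and 3005 and 3100 in mural cells, and 5 of them lay above mural cells.

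BMP and TGF-beta genes reached 100 CPM in 7 of 17 cases (median log2 ratio 1.06). Id3 (1043 and 1163 CPM) and Id1 (607 and 1001), both BMP targets, were the most abundant beside Eng, followed by the receptors Bmpr2 (332 and 409) and Acvrl1 (198 and 198). Id3 was higher in mural cells, at 2988 and 2735 CPM. Of the flow-responsive genes (4 of 9 at 100 CPM or more, median log2 ratio 2.86), Plxnd1 stood at 305 and 363 CPM, S1pr1 at 162 and 202 and Nos3, the endothelial nitric oxide synthase, at 106 and 91.8. Among secreted signals Tgfb2 was at 278 and 237 CPM, Pdgfb, the ligand that recruits mural cells, at 172 and 263, Ptn at 187 and 205, Tgfb1 at 196 and 154 and Kitl at 113 and 144, and the receptor of Pdgfb, Pdgfrb, was at 791 and 959 CPM in mural cells. With cells thinned to 2000 UMIs, Tgfb2 was found in 32.7% and 31.3% of members and 43.7% and 39.6% of lens epithelial cells. The ephrin Efna1 stood at 183 and 166 CPM. Caveolar genes were moderate, with Cavin2 at 199 and 189 CPM, Cav1 at 144 and 148 and Cav2 at 94.3 and 121, while the fatty acid genes Cd36 and Fabp4 were at 0. Of 18 genes of cell death and p53, 2 reached 100 CPM, the survival gene Mcl1 at 368 and 366 and Bax at 209 and 208, and the BH3-only gene Bcl2l11 was at 32.7 and 35.6.

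Most lens transcripts were low in the members, and 2 lens genes were not. For Pax6 and Mip, outside the rule, members held 3.27% to 4.66% of the lens epithelial level in the 2 pools. Cryaa and Cryab, at 2.59% to 3.41%, had their low level fixed by the rule, which sets the classes apart by these 2 genes. Six3 (chr17:85613608-85629302, plus strand), a homeobox factor of the eye field and lens, was instead at 503 and 519.8 CPM in the members and 297 and 258 in lens epithelial cells, or 169% and 201% of the lens level. In mural cells it was at 11.9 and 3.97 CPM. A further 5 lens genes, Foxe3, Mab21l1, Cdh1, Igfbp5 and R3hdml, were between 0.641 and 22.5 CPM in the members. With every cell thinned to 2000 UMIs, 62.0% and 57.7% of 263 and 201 members held a Six3 UMI, against 2.67% and 0.498% of 150 and 201 mural cells and 43.6% and 39.8% of 10879 and 7892 lens epithelial cells. The thinning left out 74 and 29 members, 22 and 15 mural cells and 140 lens epithelial cells in each pool, which were shallower. Without thinning a Six3 UMI was found in 72.7% and 73.5% of the members. Gja1 (connexin 43; chr10:56377330-56402513, plus strand) was at 249 and 277 CPM in the members, 77.5 and 71.2 in lens epithelial cells and 1.71 and 3.97 in mural cells. After thinning a Gja1 UMI was found in 33.5% and 41.3% of the members, 0% and 0.498% of the mural cells and 14.9% and 13.4% of the lens epithelial cells. Above the depth limits Six3 was at 631 and 646 CPM.

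The pools agreed closely for most genes, with a median log2 difference of -0.02 (replicate 2 over 1) over the 679 genes at 200 CPM or more, of which 5 differed by more than 2-fold. One of them, Gm42418, which overlaps a ribosomal RNA repeat, was at 6096 and 16972 CPM and was also unequal in mural (5579.6 and 15487) and lens epithelial cells (1259 and 4433). Cycling genes were lower in replicate 2 in the members. Top2a was at 170.0 and 91.8 CPM and Mki67 at 154 and 91.8. The 10 cycling genes summed to 1042 and 565 CPM in the members, 846 and 168 in mural cells, and 971 and 1086 in lens epithelial cells. Esm1 (108 and 183 CPM), Angpt2 (8.34 and 33.7) and Id1 (607 and 1001) were higher in replicate 2. With 1 library per pool, pups and library cannot be told apart.

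Members were then divided by genes outside the rule, and the rest of the genes were tested between the divisions. Only the 263 and 201 members with at least 2000 UMIs entered. Each was thinned to 2000 UMIs, and a member was positive with 2 or more of the thinned UMIs in a list and negative with 0. All UMIs of each class and pool were summed, and the 4 sums were compared with edgeR's quasi-likelihood test with the pool as a block (adjusted p under 0.05, Benjamini-Hochberg). The listed genes were left out of the counts below. The 4 rule genes were tested with all others but chose the members, so no result is drawn from them. The 4 sums leave 1 residual degree of freedom, and cells of both classes came from the same pups.

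Cycling members made up 31.6% (95% exact interval 26.0% to 37.6%; 83 of 263) of the members tested in replicate 1 and 15.9% (11.2% to 21.7%; 32 of 201) in replicate 2, by 10 genes such as Mki67 and Top2a. These intervals cover counting error only. Of 7173 genes, 406 were higher in the cycling class (5.66% of those tested) and 132 lower (1.84%). The 5 largest increases, by the rule for named genes, were Kif11, a spindle motor, Esco2, which acetylates cohesin, Nuf2, a kinetochore subunit, the formin Diaph3 and the histone gene Hist1h3c. All 5 were at 0 in the negative class of both pools, so they passed the count filter through the cycling class alone, and their levels are given as a description. Kif11 was at 104 and 116 CPM in the cycling class, at least 25.8-fold and 28.2-fold higher than 3 UMIs in the negative class would give. For Hist1h3c these lower bounds were 12.4-fold and 14.7-fold. No support is drawn from tests of these 5 genes. In DESeq2 Kif11 (adjusted p = 0.747), Nuf2 and Hist1h3c (both 0.9996) did not pass, and for Esco2 and Diaph3 the same limit holds. The 406 genes include these 5 and were not divided by whether the negative class held any UMI.

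A few endothelial genes were lower in the cycling class, and these calls rested on the test used. Of the 20 markers outside the rule 2 were lower in edgeR, Emcn at 366 and 404 CPM against 561 and 519 (-0.52 ± 0.13, log2 change and SE) and Kdr at 628 and 617 against 771 and 860.1 (-0.39 ± 0.12). The median log2 change of that list was -0.22, against -0.01 over all genes tested. Among the transcription factors Sox18, Sox7 and Ets2 were lower, 3 of 19 tested. The BMP target Id1 was at 531 and 515 CPM in the cycling class and 626 and 1145 in the negative class, a log2 change of -0.66 ± 0.12. The flow factor Klf2 had a log2 change of -0.25 and did not pass (edgeR adjusted p = 0.148). Of 13 barrier genes tested 1 was lower, Spock2, and the list's median log2 change was -0.28. With DESeq2 these calls were all lost, for 0 of 20 markers, 0 of 19 transcription factors, 0 of 13 BMP and TGF-beta genes and 0 of 13 barrier genes. With no replicate block edgeR called 0 markers, 0 transcription factors, 0 barrier genes and 1 BMP or TGF-beta gene. Hemoglobin genes took 4 of the 5 largest decreases and came from few barcodes. The fifth was Unc45b, a myosin chaperone, at 17.3 and 20.2 CPM against 67.1 and 74.3, which did not pass in DESeq2 (adjusted p = 0.511) or with the class set on all UMIs (log2 change -0.51, edgeR adjusted p = 0.408). Crystallin stood at 2246 and 4048 CPM in the cycling class and 2124 and 1843 in the negative class. Among members with under 0.5% crystallin 385 of 6938 genes were higher and 143 lower. DESeq2 called 121 higher and 6 lower.

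The arterial-gene class was set by Gja4, Gja5, Sox17, Hey1, Bmx and Efnb2, and held 18.6% (14.1% to 23.9%; 49 of 263) and 24.4% (18.6% to 30.9%; 49 of 201) of the members tested. Gja4 was unevenly spread, with 69.6% and 51.3% of its UMIs in the top 5% of all members. Of 6087 genes, 60 were higher in the class (0.986% of those tested) and 25 lower (0.411%). A second thinning seed gave 125 higher and 100 lower of 5805 genes. The 10 other arterial genes tested included 7 of the 60, with a median log2 change of 1.61 against -0.02 over all genes tested. Stmn2 and Cxcl12 led. The chemokine Cxcl12 was at 80.2 and 158 CPM in the class and 6.02 and 15.1 in the negative class, a log2 change of 3.41 ± 0.37 (SE, edgeR adjusted p = 2.78e-05). The netrin receptor Unc5b was at 309 and 311 against 83.0 and 75.5 CPM. Dll4 was at 309 and 338 against 142 and 168, a log2 change of 1.00 ± 0.17. Sema3g, Ltbp4 and Vegfc also rose, while Nrp1 (-0.39), Jag1 (-0.16) and Gata2 (0.95) did not pass. By the rule for named genes the largest increases were Stmn2, Cxcl12, the Wnt antagonist Dkk2 (3.09 ± 0.47), the BMP-responsive Tmem100 (2.62 ± 0.46) and Egfl8 (2.58 ± 0.44). In DESeq2 Cxcl12 and Dkk2 passed, and Stmn2 (adjusted p = 0.205), Tmem100 (0.286) and Egfl8 (0.672) did not. Tmem100 also missed the threshold with DESeq2's size factors in edgeR (adjusted p = 0.0515), and with the class set on all UMIs Dkk2 (0.444) and Tmem100 (0.344) did not pass. Stmn2 rested on few transcripts, with 17 UMIs in the class and 1 in the negative class of replicate 2.

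Some barrier and Wnt genes were higher in the arterial-gene class. Of 13 barrier genes tested 5 were higher, with a median log2 change of 0.41. They were Slco1c1 at 144 and 179 CPM against 36.1 and 33.6 (log2 change 2.11 ± 0.27, edgeR adjusted p = 0.000207), the cationic amino acid carrier Slc7a1 (1.02 ± 0.18), Itm2a (0.96 ± 0.20), Mfsd2a (0.87 ± 0.17) and Abcb1a (0.86 ± 0.16). Mfsd2a was at 405 and 512 CPM in the class and 259.9 and 209.7 in the negative class. Slc2a1 changed by 0.29 ± 0.13 and did not pass (edgeR adjusted p = 0.371). Of 9 Norrin and Wnt genes Fzd6, Apcdd1 and Nkd1 were higher (list median 0.07), and Apcdd1 was at 746 and 965 against 439 and 408 CPM. Plvap went the other way, at 361 and 274 CPM in the class and 602 and 527 in the negative class, a log2 change of -0.89 ± 0.16 (edgeR adjusted p = 0.00465). Emcn, a sialomucin of capillaries and veins, was lower as well (-0.68 ± 0.15). Of 5 venous genes tested, the apelin receptor Aplnr was lower at 60.2 and 47.5 against 160.0 and 141 CPM, and Vwf (von Willebrand factor) was higher at 225 and 475 against 89.0 and 58.7. Fibronectin (Fn1), the one basement membrane gene of 14 to pass, was at 124 and 248 against 28.9 and 28.5 CPM. Notch1 (0.74 ± 0.18) and Gja1 (0.84 ± 0.17) rose too. DESeq2 called 0 of the 20 endothelial markers, Plvap and Emcn among them, 0 of the 5 venous genes, 0 of the 7 Notch genes, Dll4 and Notch1 among them, 0 of the 4 lens genes tested, 1 of the 9 Norrin and Wnt genes and 1 of the 14 basement membrane genes.

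**Figure D4:**
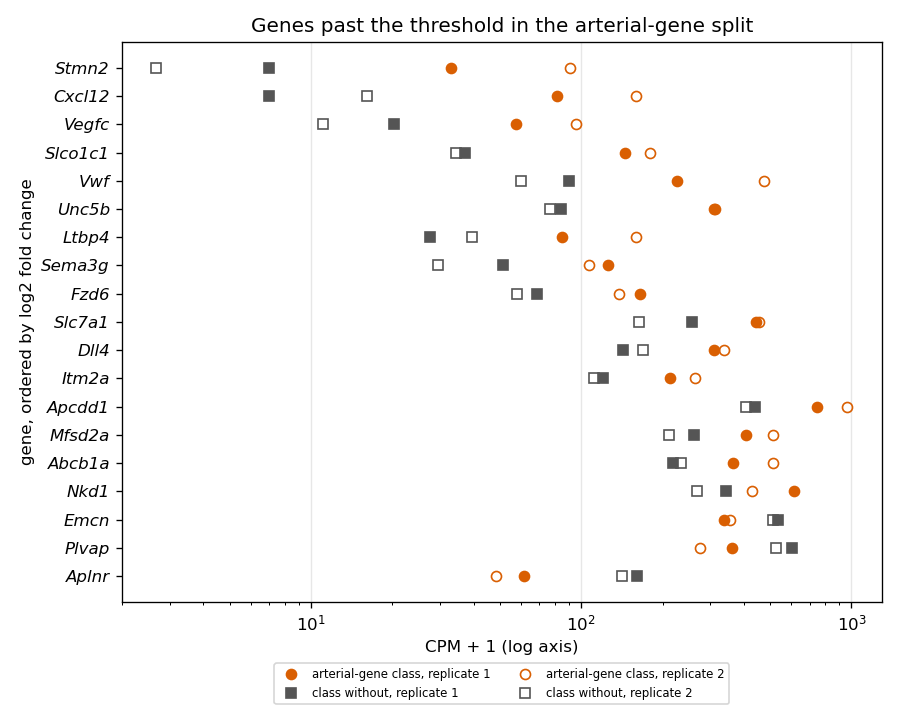
Level (CPM + 1, log axis) of the arterial, barrier, Wnt and venous genes and of Plvap and Emcn that passed the test, in members with arterial genes (circles) and without (squares), filled for replicate 1 and open for replicate 2. The circles lie to the right of the squares in both pools for 16 genes and to the left for Emcn, Plvap and Aplnr.

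Other measures moved with the arterial-gene class. Its members had medians of 3340 and 3081 UMIs against 3995 and 4949, though the division itself used the thinned UMIs. The 13 mural markers summed to 72.2 and 79.1 CPM against 49.3 and 21.8, and the only one of them tested, Serpine2, was higher (3.03 ± 0.53); mural cells carried Gja4 at 1018 and 848 CPM and Serpine2 at 2507 and 2737. After thinning, Itm2a was found in 55.3% and 55.2% of mural cells and 21.3% and 20.4% of members. For Fn1 these shares were 36.7% and 30.8% against 10.3% and 10.4%. For the ligand Ptn, described below, they were 63.3% and 62.2% against 29.3% and 27.4%. The barrier genes Slco1c1, Slc7a1, Mfsd2a and Abcb1a were each found in a smaller share of mural cells than of members. Crystallin stood at 2648 and 2717 CPM in the class and 2106 and 2260 in the negative class. After thinning, Efnb2 was found in 19.0% and 18.4% of lens epithelial cells and 13.7% and 20.9% of members. For Hey1 these shares were 9.39% and 9.48% against 10.6% and 13.9%. Gja4, Gja5, Sox17 and Bmx, which also set the class, were each rarer in lens epithelial cells than in members. The part of mural and of lens RNA in these results was not tested. Hemoglobin genes made up 4 of the 5 largest decreases. Without the barcodes holding 100 or more Hbb-bs UMIs 60 of 6092 genes were higher and 36 lower. Those higher included 7 of 10 arterial and 5 of 13 barrier genes. The fifth was Trp53i11, at 16.0 and 10.6 CPM against 74.6 and 83.9, which did not pass without those barcodes (edgeR adjusted p = 0.0899), with the class set on all UMIs (0.374) or in DESeq2 (0.579). With the barcodes above the depth limits added, 215 of 8827 genes were higher and 108 lower. Among the higher ones were 7 of 11 arterial and 8 of 14 barrier genes. DESeq2 called 14 higher and 3 lower, with 2 of 10 arterial and 1 of 13 barrier genes. With DESeq2's size factors in edgeR 5 of 10 and 1 of 13 passed, and with the class set on all UMIs 3 of 9 and 2 of 13.

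**Figure D5:**
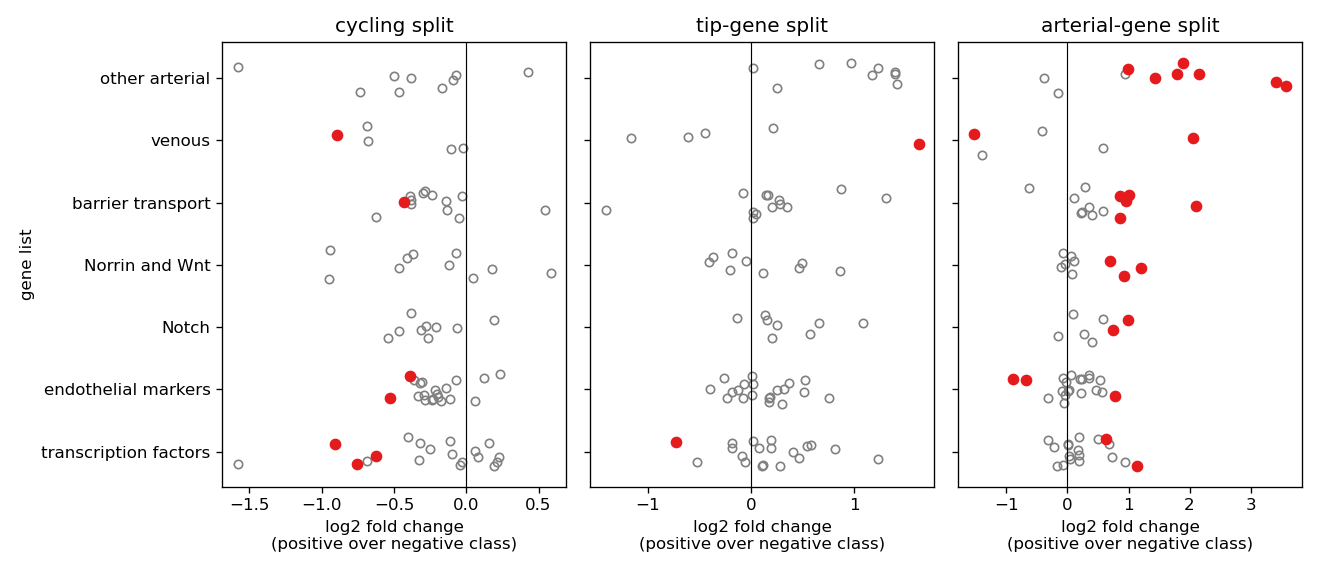
log2 fold change of each tested gene of 7 lists (rows) between the positive and the negative class of the 3 divisions (panels); red points passed an adjusted p of 0.05 and grey rings did not. In the right panel 7 of 10 other arterial genes and 5 of 13 barrier genes are red and to the right of 0.

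The tip-gene class was set by Esm1, Apln, Angpt2, Kcne3, Cxcr4 and Pgf, genes of sprouting cells, and held 9.13% (5.93% to 13.3%; 24 of 263) and 16.4% (11.6% to 22.3%; 33 of 201) of the members tested. Of 5765 genes, 19 were higher (0.33% of those tested) and 36 lower (0.624%), but these calls did not survive a change of the random thinning. With a second seed edgeR called 0 of 5945 genes in either direction. There 351 of the 5945 had an unadjusted p under 0.05, a limit that some genes pass when none differs. DESeq2 on the first thinning called 6 higher and 15 lower. The largest increases were Dkk2, Tmem100, the natriuretic peptide receptor Npr3, Igfbp3 and the membrane protein Mal. Npr3 was at 191 and 215 CPM in the class and 52.6 and 57.3 in the negative class. Igfbp3 was at 219 and 399.8 against 40.6 and 138. The largest decreases were Prcp, Ckb, Nr4a1, Ier3 and Rpl35. Klf2 was at 711 and 946 against 1129 and 1452 CPM. The 7 further tip-cell genes tested had a median log2 change of 0.23, against -0.02 over all genes tested. Of the arterial genes that set the other class, Gja4 (1.29 ± 0.24) and Efnb2 (1.27 ± 0.24) were higher, and 8 of 24 and 13 of 33 tip-gene members, or 33.3% and 39.4%, were also in the arterial-gene class, which is 16.3% and 26.5% of that class.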

How the data were processed

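Single-cell RNA libraries (10x 3′ chemistry) were made from 2 pools of lens epithelium, and the authors aligned and counted the reads with Cell Ranger 6.1.1 against mm10. The deposited values are raw UMI counts per gene and barcode, 1 filtered matrix per pool, with no normalization. Here barcodes were kept between fixed lower and upper limits on UMIs and genes and with at most 15% mitochondrial UMIs, so that kept lens epithelial barcodes ran from 955 to 20192 UMIs. The members, the gene lists and these limits were chosen with earlier results of these data known, so levels in members against other cells carry no test. UMIs were summed per class and pool and given as CPM. No doublets were removed, and an alternative left out the 8% of barcodes with the highest Scrublet score in each pool. Macrophages held 5 or more UMIs of C1qa, C1qb, C1qc and Pf4, and 47 kept barcodes fell into no class.

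Divisions among members were tested with edgeR 4.0.16 in R 4.3.3 (quasi-likelihood, TMM factors, filterByExpr, pool as a block because cells of both classes came from the same pups, Benjamini-Hochberg). The steps were tested on simulated data. Standard errors were taken from the log2 change and the F statistic. DESeq2 1.42.0, other size factors, no count filter, no block, a second thinning seed and a division on all UMIs were alternatives. Settings without upper limits, with under 0.5% crystallin and without barcodes of 100 or more Hbb-bs UMIs were chosen after seeing the data. Genes named are the rule genes, Kdr and Cd34, the 20 genes of 200 CPM or more with the largest ratio to other kept barcodes, the most abundant genes and the partners of each list, and for each division the 5 largest increases and decreases past the threshold, in the same direction in both pools and with 50 CPM or more in a class; other list members were named after their values were seen. Positions are from GENCODE vM21, where 32158 of 32285 genes were matched. Intervals and limits from counts of 0 cover counting error only. Other work used Python 3.11.15, SciPy 1.17.1 and scanpy 1.11.5.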

Additional observations from a re-analysis of the deposited data

Results flagged for a closer look

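Barcodes above the upper UMI or gene limit, which the comparisons of members do not use, carried the endothelial genes in both pools: 84 in replicate 1 and 66 in replicate 2 met all 3 gene criteria. They were 20.2% (95% exact interval 16.4% to 24.4%) of the 416 barcodes above a limit in replicate 1 and 13.3% (10.4% to 16.6%) of the 498 in replicate 2, whereas members were 2.91% and 2.70% of the kept barcodes. Hemoglobin genes summed to 1972 and 4405 CPM in them, 483 and 2005 CPM in the members and 11.9 CPM in mural cells of each pool. Whether they held more than 1 cell was not tested.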

How the results depend on the processing

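Members were 2.51% of the kept barcodes with 10 or more endothelial UMIs and 3.40% with no upper limit on depth, against 2.80%. In the cycling division DESeq2 called 121 genes higher and 6 lower and 46 were lower with no replicate block, against 406 and 132, each over 7173 genes. With no upper limit 224 of 9428 genes were lower. In the tip-gene division (19 higher, 36 lower) DESeq2 called 6 and 15 and DESeq2's size factors in edgeR gave 21 lower, each over 5765 genes. No replicate block gave 4 and 0 over the same 5765, with 474 at an unadjusted p under 0.05. No count filter gave 30 and 94 of 13709. The second seed gave 0 and 0 of 5945, with 351 at an unadjusted p under 0.05. All UMIs gave 5 and 4 of 6232 and no upper limit 76 higher of 8585. Under 0.5% crystallin gave 10 lower of 5480, and leaving out the hemoglobin barcodes 37 and 66 of 5683. In the arterial-gene division (60 higher, 25 lower) DESeq2 called 14 and 3, DESeq2's size factors gave 29 and 9 and no replicate block 15 lower, each over 6087 genes. No count filter gave 55 lower of 13644, the second seed 125 and 100 of 5805 and all UMIs 11 lower of 6003. No upper limit gave 215 and 108 of 8827, and under 0.5% crystallin 40 lower of 5383. Without the hemoglobin barcodes Hba-a1 and Hba-a2 turned from lower to higher in that division, with log2 changes of 0.90 and 1.13 and adjusted p of 0.821 and 0.756 in edgeR. The cause was not tested in any of these cases, beyond the smaller or larger number of cells and genes entered. For the genes named in the divisions, 253 values under other settings kept direction, 66 lost the call and 2 reversed. The 253 include 30 values with replicate 1 left out and 30 with replicate 2 left out. These have no p-value, and the rule for naming genes fixed their direction. The rest of the 253 also stayed past the threshold. Of 225 member levels under other settings 175 moved by less than the spread between pools. Leaving out a pool leaves 1 sum per class and no test. The same direction in both pools was a condition for naming a gene, so direction cannot be judged this way. With 2 pools, 1 residual degree of freedom and 24 to 149 cells per class and pool, a call that is absent does not show equal levels, and levels under 1.92 and 2.81 CPM lie below 3 UMIs in the members.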

Other observations

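Secreted and venous genes were also tested between the divisions. In the arterial-gene division 3 of 10 ligand genes were higher, Cxcl12, Tgfb2 (0.84 ± 0.18, SE) and Ptn (0.94 ± 0.17), a heparin-binding growth factor. Ptn was also the one of 11 ligand genes that was higher in the cycling class, at 251 and 354 CPM against 164 and 167. Cdkn1a, the cell-cycle inhibitor p21, was at 152 and 179 CPM in the arterial-gene class and 74.6 and 45.3 in the negative class. In DESeq2 1 of the 10 ligand genes was higher in the arterial-gene class, Cdkn1a did not pass, and 0 of 11 ligand genes passed in the cycling class. Aqp1, a water channel, was at 534 and 517 against 101 and 112 CPM, and Glul, glutamine synthetase, at 209 and 232 against 46.9 and 50.3; both were on no list and were chosen after their values were seen. Icam1, an adhesion molecule listed with the venous genes, stood at 398 and 354 CPM over all members and Vwf at 117 and 163. Of the cycling members 15 of 83 and 3 of 32 were also in the arterial-gene class, or 18.1% and 9.38%.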
